A study of Mus musculus with 3 samples.

Results

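Il6ra, Il6st, Il4ra and Il21r are the receptor genes through which T cells sense IL-6, IL-4 and IL-21. They were examined in mouse T cells by chromatin immunoprecipitation and sequencing (ChIP-seq) for H3K4me3, a histone mark of active promoters, and for phospho-STAT3. The 4 genes were chosen by name and by their place on the mm9 genome, in 3 intervals: 80 kb around Il6ra on chromosome 3, 80 kb around Il6st on chromosome 13 and 105 kb around the neighbours Il4ra and Il21r on chromosome 7. Of 10971 H3K4me3 regions in the genome, 5 lay in these intervals, and 4 of them were assigned to the 4 genes. Of 27060 phospho-STAT3 sites, 23 lay there.

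Each group was 1 library. STAT3-deficient H3K4me3 came from cells of Stat3fl/fl FoxP3-GFP mice with CD4-Cre, wild-type H3K4me3 and wild-type phospho-STAT3 from cells of Stat3fl/fl FoxP3-GFP mice without Cre, so the controls carry the conditional allele too. All cells were sorted naive CD4 T cells (CD44-, CD62L+), kept for 72 h on antibodies to CD3 and CD28 with TGF-b at 2.5 ng/ml and IL-6 at 10 ng/ml while IL-2, IL-4 and IFN-g were blocked, then given IL-6 for 1 h. Such conditions drive naive cells to become Th17 cells, which make IL-17. CD4-Cre acts in T cells that have reached the Cd4-expressing stage, and the phospho-STAT3 antibody recognises STAT3 phosphorylated at Ser727. The STAT3-deficient H3K4me3, wild-type H3K4me3 and wild-type phospho-STAT3 libraries held 12075963, 12281399 and 10127075 reads.

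IL-6 binds the receptor chain encoded by Il6ra, and the pair then engages gp130, the signalling chain encoded by Il6st, which several other cytokines of the family share. JAK kinases bound to gp130 phosphorylate STAT3. The IL-21 receptor chain (Il21r) pairs with the common gamma chain and also signals through STAT3, and IL-21 sustains Th17 cells. The IL-4 receptor alpha chain (Il4ra) pairs with the common gamma chain or with the IL-13 receptor chain Il13ra1, and signals mainly through STAT6, the factor of the Th2 state.

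The starts of these genes are shown first, since H3K4me3 is a mark of gene starts. The sequences are RefSeq's, of the build GRCm38.p6, whose coordinates must not be read against the mm9 positions given for reads. Each runs 5′ to 3′ in the direction of the gene, from 250 bases before to 50 after its start, and capitals mark CG dinucleotides.
Il6ra (chr3:89913147-89913446, minus strand): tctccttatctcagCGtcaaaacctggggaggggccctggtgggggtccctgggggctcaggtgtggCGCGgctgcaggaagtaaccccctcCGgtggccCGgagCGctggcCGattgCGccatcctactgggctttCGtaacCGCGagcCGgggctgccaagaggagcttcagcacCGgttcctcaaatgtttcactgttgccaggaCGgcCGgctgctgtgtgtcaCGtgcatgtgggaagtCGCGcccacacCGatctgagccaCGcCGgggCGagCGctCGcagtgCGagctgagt
Il6st (chr13:112463820-112464119, plus strand): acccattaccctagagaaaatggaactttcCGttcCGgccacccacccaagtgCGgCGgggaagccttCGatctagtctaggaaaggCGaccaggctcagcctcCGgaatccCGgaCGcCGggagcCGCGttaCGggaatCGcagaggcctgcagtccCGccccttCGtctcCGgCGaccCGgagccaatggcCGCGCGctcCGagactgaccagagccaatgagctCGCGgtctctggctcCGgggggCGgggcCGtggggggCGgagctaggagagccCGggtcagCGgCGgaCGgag
Il4ra (chr7:125552021-125552320, plus strand): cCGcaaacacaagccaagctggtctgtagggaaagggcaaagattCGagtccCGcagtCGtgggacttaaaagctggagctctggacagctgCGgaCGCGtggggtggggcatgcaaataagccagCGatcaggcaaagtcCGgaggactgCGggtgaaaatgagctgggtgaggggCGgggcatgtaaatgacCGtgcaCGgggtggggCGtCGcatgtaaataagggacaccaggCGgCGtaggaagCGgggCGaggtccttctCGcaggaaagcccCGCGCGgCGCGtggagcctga
Il21r (chr7:125603179-125603478, plus strand): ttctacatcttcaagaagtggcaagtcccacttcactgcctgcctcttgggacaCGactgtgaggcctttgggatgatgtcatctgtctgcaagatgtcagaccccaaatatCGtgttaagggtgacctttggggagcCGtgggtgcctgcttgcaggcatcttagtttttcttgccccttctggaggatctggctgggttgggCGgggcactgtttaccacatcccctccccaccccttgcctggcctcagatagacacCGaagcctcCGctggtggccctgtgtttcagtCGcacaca

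Il6ra and Il4ra each held 25 CG dinucleotides in these 300 bases, Il6st 33 and Il21r 7. Over all 32851 promoters of the same table the median was 7, with quartiles at 3 and 20. Il21r thus stood at the median of CG content, and the other 3 genes above the upper quartile. The STAT motif TTCNNNGAA, searched on both strands, was in 0 of the 4 promoters, against 8.30% of all promoters. The narrower TTCCNGGAA or TTCTNGGAA, all of whose matches are also matches of the wider motif, was in 0 of the 4, against 3.36% of all. In a list of 36 ligands, receptors, kinases, STAT factors and inhibitors of the same pathways, 28 genes matched the table and 4 of them held TTCNNNGAA. These were Il4 (a ligand), Il7r (a receptor) and Socs3 and Cish, both feedback inhibitors of cytokine signalling. At the level of genes, 9.55% of all genes held it. The reads of the other pathway genes were not counted, because no mm9 annotation was used here. For the same reason, markers of the Th17 state were not checked, no site is placed in an exon or intron, and the end of a region nearer the gene start was taken from the strand of the gene.

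The label of the STAT3-deficient library could not be checked at the gene itself, since Stat3 was not placed on mm9. Among stretches of at least 2 kb without any STAT3-deficient read, the one on chromosome 11 from 100753872 to 100757528 ranked first by the smaller of its other counts, with 0 STAT3-deficient H3K4me3 reads, 28 wild-type H3K4me3 reads and 73 wild-type phospho-STAT3 reads. By that smaller count, the next stretches, on chromosomes 6 and 18, had 23 reads each. The stretch was picked from 98119 for its lack of STAT3-deficient reads, so it does not check the label. In the 3 receptor intervals, 0 positions had at least 3 reads, making up at least 30% of the reads there, that differed from the reference genome. Reads were sparse: the 80 kb Il6ra interval held 735 wild-type H3K4me3 and 1507 wild-type phospho-STAT3 reads of 25 bp. Most positions could therefore not meet this rule, and the 0 does not show that sequence differences are absent.

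**Figure D1:**
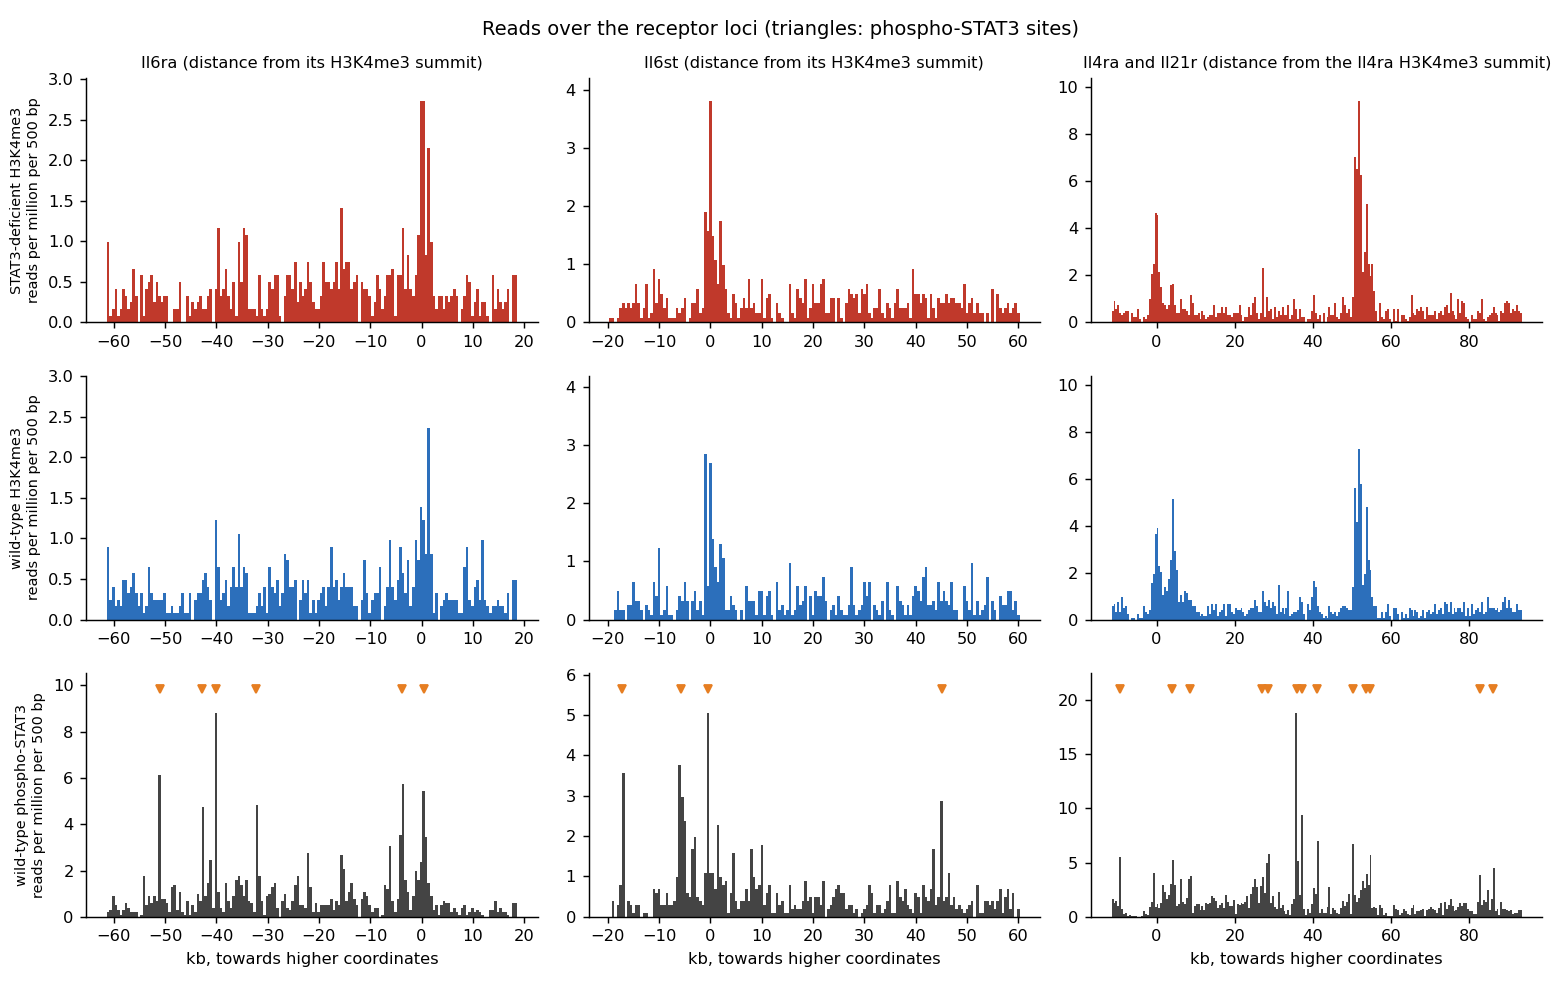
RPM (reads per 1000000 reads) in steps of 500 bp over the Il6ra, Il6st and joint Il4ra and Il21r intervals, in the STAT3-deficient H3K4me3 library (top), the wild-type H3K4me3 library (middle) and the wild-type phospho-STAT3 library (bottom), against the distance in kb from the H3K4me3 summit named above each column. Triangles mark the 23 phospho-STAT3 sites. A peak 4 to 5 kb from the Il4ra summit stands in the wild-type H3K4me3 track and is low in the STAT3-deficient one.

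With both libraries pooled, H3K4me3 marked all 4 receptor genes, most strongly Il21r and least Il6ra, which was not a marked region when the wild-type library was used alone. After scaling, the interval of the STAT3-deficient over wild-type ratio of the whole region included no difference at Il6ra, Il6st and Il21r. Il4ra differed: its region was 1.69-fold lower in the STAT3-deficient library, and the deficit lay in the part of the region farther from the gene start. The levels below are reads within 1 kb of the highest point of each region, a window of equal length for all genes, as RPM (reads per 1000000 reads of the library). With 1 library per genotype no test between genotypes is possible. All intervals are exact 95% intervals that cover counting error only and treat reads as independent. In bulk chromatin, fewer marked cells and less mark per cell cannot be told apart.

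For Il21r the level was 27.5 RPM (24.6 to 30.6) in STAT3-deficient cells and 20.7 (18.2 to 23.4) in wild-type cells. Il4ra stood next, with 13.8 (11.8 to 16.1) in STAT3-deficient and 11.8 (9.96 to 13.9) in wild-type cells. Il6st had 8.86 (7.26 to 10.7) in STAT3-deficient and 6.84 (5.46 to 8.47) in wild-type cells. Il6ra had 7.45 (5.99 to 9.16) in STAT3-deficient and 4.23 (3.16 to 5.55) in wild-type cells. The order of the 4 genes was the same in both libraries, and only the neighbours Il6st and Il6ra had intervals that overlapped. The median over all marked regions was 6.38 RPM in the STAT3-deficient and 5.13 in the wild-type library, so that Il6ra lay above that median in STAT3-deficient cells and below it in wild-type cells. After the scaling described below, the log2 ratio in this Il6ra window was 0.50 (-0.006 to 1.02), an interval that included 0. Il21r, with the fewest CG dinucleotides at its start, was above 99.96% of all regions in the STAT3-deficient and 99.92% in the wild-type library.

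Marked regions as a whole held 8.14% of the STAT3-deficient and 6.48% of the wild-type H3K4me3 reads. Ratios were therefore scaled to a median log2 ratio of 0 over all marked regions, which removes any change common to them. Scaling by library totals adds 0.32 to each log2 ratio. A region was called differing at a 2-fold or larger difference whose interval excluded 0. Of all marked regions 2.17% were called, and 1.16% were called lower in the STAT3-deficient library. None of the 4 receptor regions was called.

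Over their whole regions, the intervals of both chain genes of the IL-6 receptor included 0 after scaling. The Il6ra region, on chromosome 3 from 89715400 to 89718399, held 129 STAT3-deficient and 91 wild-type reads, a log2 ratio of 0.21 (-0.19 to 0.61). The Il6st region, on chromosome 13 from 113253800 to 113257199, held 153 STAT3-deficient and 128 wild-type reads, a log2 ratio of -0.04 (-0.39 to 0.31). At Il6ra the interval reaches 0.61, so a higher mark in STAT3-deficient cells of that size is not excluded by the counts. Called on the STAT3-deficient library alone, the region had an interval above 0, at 0.50 (0.03 to 0.99). That call selects stretches by STAT3-deficient reads, which favours a higher ratio, and the wild-type library alone gave no marked region there. With windows joined within 200 bp the interval also lay above 0, at 0.73 (0.10 to 1.39). By library totals the Il6ra ratio was 0.53 (0.13 to 0.93) and the Il6st ratio 0.28 (-0.07 to 0.63), beside a median of 0.32 over all regions.

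Il21r had a broad region on chromosome 7, 5800 bp from 132746400 to 132752199, wider than 99.4% of marked regions. It held 590 STAT3-deficient and 476 wild-type reads, a log2 ratio of 0.01 (-0.16 to 0.19). Its ratio was thus the most closely bounded of the 4 genes and lay at the middle of all regions, above 51.8% of them. By library totals it was 0.33 (0.16 to 0.51), again beside the median of 0.32.

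Il4ra had the widest region of the 4 genes, 7000 bp on chromosome 7 from 132695000 to 132701999. It held 298 STAT3-deficient and 411 wild-type reads. The log2 ratio was -0.76 (-0.98 to -0.54), and only 2.76% of marked regions had a lower one. The interval lay wholly below 0, as it did for 5.69% of marked regions, but the difference was under 2-fold. By library totals the ratio was -0.44 (-0.66 to -0.22), so its direction did not turn with the scaling.

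**Figure D2:**
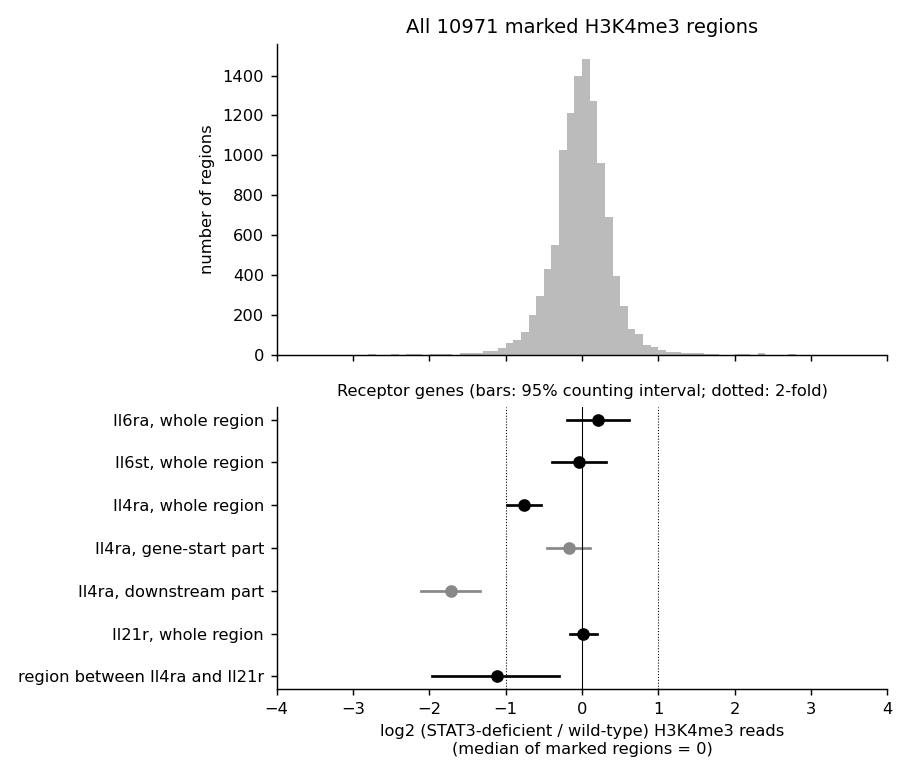
Number of marked regions by log2 ratio of STAT3-deficient over wild-type H3K4me3 reads (top), and the ratios of the receptor regions with 95% counting intervals (bottom), where dotted lines mark 2-fold. Il4ra as a whole lies at -0.76, its gene-start part at -0.17 and its downstream part at -1.72, while Il6ra, Il6st and Il21r have intervals that include 0.

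Along the Il4ra region the 2 libraries parted with distance from the gene start. In the first 1 kb step, STAT3-deficient cells had 55 reads and wild-type cells 43. In the next step the counts were 111 in STAT3-deficient and 93 in wild-type cells, a log2 ratio of -0.04 (-0.45 to 0.37) after scaling. The following steps held 44 STAT3-deficient against 53 wild-type reads and then 19 STAT3-deficient against 30 wild-type reads. The fifth held 16 STAT3-deficient and 36 wild-type reads. From 132700000 to 132700999 there were 39 STAT3-deficient and 94 wild-type reads, and in the last step 14 STAT3-deficient and 62 wild-type reads. In wild-type cells the sixth step was thus as high as the highest step near the gene start, and in STAT3-deficient cells it was 39 against 111 reads. The log2 ratios of the last 3 steps were -1.47 (-2.41 to -0.58), -1.57 (-2.14 to -1.01) and -2.44 (-3.39 to -1.59).

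Split at its midpoint, a division chosen after these values were seen, the Il4ra region had 220 STAT3-deficient and 202 wild-type reads in its gene-start part. The log2 ratio there was -0.17 (-0.46 to 0.11). The downstream part, from 132698500 to 132701999, held 78 STAT3-deficient and 209 wild-type reads, a log2 ratio of -1.72 (-2.11 to -1.34), or 3.29-fold lower. Of all parts of marked regions with at least 50 reads, 1.03% were called lower. The downstream part held 26.2% of the region's reads in STAT3-deficient cells and 50.9% in wild-type cells. That contrast between the parts is free of any scaling, and its log2 odds ratio was -1.54 (-2.03 to -1.06).

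Such contrasts within a region were uncommon. Of 5475 marked regions with at least 50 reads in each part, 3.29% had parts differing at least 2-fold with an interval that excluded 0. Il4ra and Il6ra were both among them, Il6ra in the other direction, with 80 STAT3-deficient and 40 wild-type reads in its downstream part against 49 STAT3-deficient and 51 wild-type reads in its gene-start part, a log2 odds ratio of 1.05 (0.22 to 1.90). After scaling, the log2 ratio of the downstream part of Il6ra was 0.70 (0.14 to 1.29), above 0 but under 2-fold, and that of its gene-start part was -0.35 (-0.95 to 0.24). The log2 odds ratio between the parts was -0.12 (-0.88 to 0.63) for Il6st and -0.01 (-0.39 to 0.37) for Il21r. In Il21r, whose region is nearly as wide as that of Il4ra, the downstream part held 33.7% of STAT3-deficient and 33.8% of wild-type reads.

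The same division of Il4ra appeared without any choice of a midpoint when regions were called more strictly. At a window threshold of 1e-08, the stretch broke into a region at the gene start, with 202 STAT3-deficient and 185 wild-type reads, and a downstream region from 132700000 to 132701999, with 53 STAT3-deficient and 156 wild-type reads. The gene-start region had a log2 ratio of -0.18 (-0.48 to 0.11), the downstream one a log2 ratio of -1.87 (-2.34 to -1.41). The downstream region was found from the wild-type library alone, but was not found from the STAT3-deficient library alone. All these calls use the same reads as the ratios, so they restate the difference and are not separate support for it. The figure of -0.76 for Il4ra as a whole is therefore an average over a gene-start stretch, whose interval includes 0, and a lower stretch, and it depends on joining them.

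**Figure D3:**
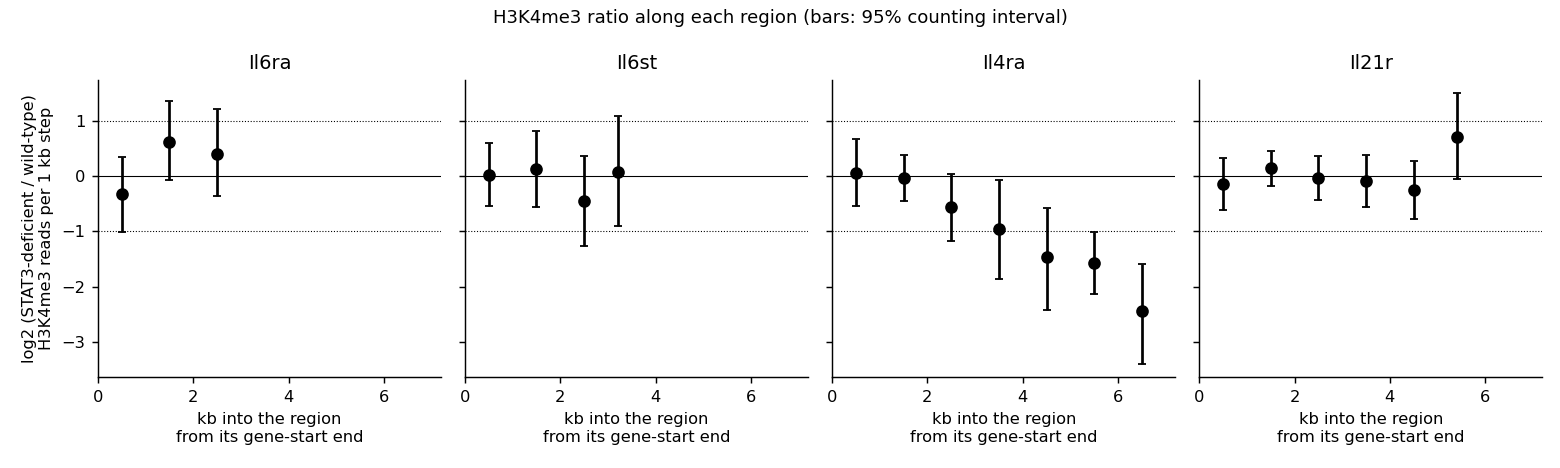
Log2 ratio of STAT3-deficient over wild-type H3K4me3 reads in 1 kb steps along the region of each gene, from the end at which the gene starts, with 95% counting intervals (the last steps of Il6st and Il21r are shorter). In Il4ra the ratio is 0.06 in the first step and -2.44 in the last, while every interval of the other genes includes 0.

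A further H3K4me3 region lay between Il4ra and Il21r, from 132736400 to 132737399, with 21 STAT3-deficient and 37 wild-type reads. Its log2 ratio of -1.11 (-1.96 to -0.30) passed the size rule with few reads, and by library totals the interval, -1.64 to 0.02, included 0. No gene is assigned to it. A weaker stretch from 132723600 to 132723999 held 28 STAT3-deficient and 14 wild-type reads, under the minimum of 50 for a marked region. Outside regions, the joint Il4ra and Il21r interval held 948 STAT3-deficient and 955 wild-type reads there, the Il6ra interval 696 STAT3-deficient and 644 wild-type, and the Il6st interval 570 STAT3-deficient and 553 wild-type. By library totals these log2 ratios were 0.01 (-0.12 to 0.14), 0.14 (-0.02 to 0.29) and 0.07 (-0.10 to 0.24) in that order. On the scale of the marked regions, used for the ratios above unless library totals are named, all 3 lay below 0, at -0.31 (-0.44 to -0.18), -0.18 (-0.34 to -0.03) and -0.25 (-0.42 to -0.08).

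Phospho-STAT3 sites were called in the region of each of the 4 genes in wild-type cells, and the stretch between Il4ra and Il21r held 5 further sites, among them the strongest of all 23. The 3 intervals held 8.68 sites per 100 kb, against 1.03 over the genome. The joint Il4ra and Il21r interval held 13 sites, a number reached by 0.0438% of tiles of that length along the genome. The Il6ra interval held 6, reached by 1.98% of tiles of its length, and the Il6st interval 4, reached by 6.93%. The tiles cover the whole genome, gene-poor stretches included. No input library and no phospho-STAT3 library of STAT3-deficient cells were analysed here. Within 1 kb of the H3K4me3 summit the phospho-STAT3 library had 12.9 RPM at Il6ra, 7.90 RPM at Il6st and 6.91 RPM at both Il4ra and Il21r. The gene with the lowest H3K4me3 of the 4 thus had the highest phospho-STAT3 level in that window. The window holds the sites in the Il6ra and Il6st regions, but none of those in the Il4ra and Il21r regions. Over whole regions the phospho-STAT3 reads were 158 at Il6ra (3000 bp), 125 at Il6st (3400 bp), 311 at Il4ra (7000 bp) and 346 at Il21r (5800 bp). The order of the genes therefore depends on the window.

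Each of the 4 receptor regions held at least 1 site, as did 52.5% of all marked regions. That share is not matched for width: the median marked region was 1200 bp wide, and the 4 receptor regions were 3000 to 7000 bp. In Il6ra the site, from 89716600 to 89716899, was 0.40 kb upstream of the H3K4me3 summit and held 32 reads, 4.68-fold over the local density. In Il6st the site from 113254000 to 113254349 was 0.55 kb upstream of the summit and held 31 reads, 6.25-fold over the local density. Sites at Il21r lay 1.25 kb upstream of its summit and 2.1 and 3.05 kb downstream, with 37, 30 and 38 reads. The first of these was also called in both H3K4me3 libraries, as were 12.9% of all sites, and it is the only one of the 23 for which this held. In Il4ra the site from 132700400 to 132700649 lay 4.05 kb downstream of the gene-start summit, inside the stretch of lower H3K4me3, with 35 reads, 3.84-fold over the local density. This site is weak: it was not called at a threshold of 1e-12, nor without the read shift. The Il6ra site at the summit and the Il21r site at 2.1 kb were also not called at 1e-12. That Il21r site was lost as well without the read shift and with a local density over 5 kb. The second Il4ra site, from 132704850 to 132705149, held 31 reads and lay past the end of the marked region. It too was lost at 1e-12, so that Il4ra kept 0 of its 2 sites at that threshold.

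The strongest site of these loci lay between genes. On chromosome 7 from 132732200 to 132732699, 30.2 kb past the end of the Il4ra region and 13.7 kb before the start of the Il21r region, the phospho-STAT3 library held 196 reads in its highest window of 200 bp, 109 on the plus and 87 on the minus strand. This was 18.9-fold over the local density, and by its excess of 186 reads the site ranked 13 of 27060. It accounted for 32.9% of the summed excess of the 13 sites of this interval. Neighbouring sites from 132733450, 132724850 and 132737450 held 65, 51 and 58 reads. By the excess that separates the top 25% of all sites, 26.1 reads, 4 of the 5 sites between both genes were strong, against 0 of 2 in Il4ra and 2 of 3 in Il21r. The Il4ra site from 132700400 fell just short of that limit, with an excess of 25.9 reads. The site nearest in strength at the other loci was in the Il6ra interval, from 89676100 to 89676499, with 71 reads and rank 615, and lay 40.05 kb downstream of the Il6ra summit.

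At Il6ra, sites were spread along the interval downstream of the gene start, at 3.8, 32.2, 40.05, 42.7 and 51.05 kb, with 46, 30, 71, 33 and 46 reads. At Il6st, the site with the largest excess lay 5.8 kb upstream of the summit, from 113248750 to 113249199, with 45 reads. Others lay 17.2 kb upstream, with 31 reads, and 45.1 kb downstream, with 25 reads. The remaining sites of the chromosome 7 interval held fewer reads than the strongest: 39 reads 9.35 kb upstream of the Il4ra summit, 31 reads 27.0 kb downstream of it, and 26 and 34 reads 31.1 and 34.5 kb downstream of the Il21r summit. In all, 14 of the 23 sites were strong. The median of the 23 was 35 reads, against 21 over all sites of the genome.

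**Figure D4:**
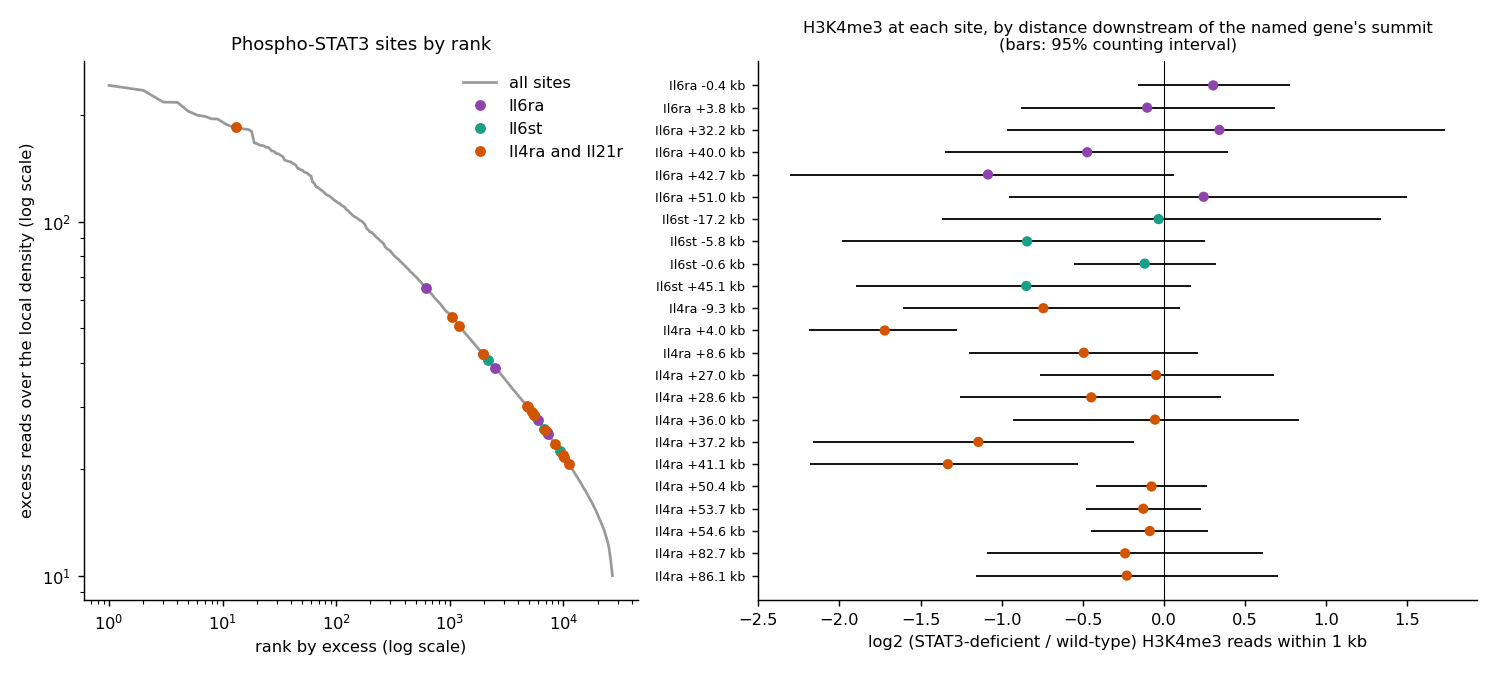
Left, excess of phospho-STAT3 reads over the local density against rank for all sites (line) and for the sites of the receptor loci (points), both axes on a log scale. Right, log2 ratio of STAT3-deficient over wild-type H3K4me3 reads within 1 kb of each of the 23 sites, with 95% counting intervals, labelled by distance from the named gene's summit (for all 13 chromosome 7 sites, that of Il4ra). The site between Il4ra and Il21r ranks 13, and the lowest ratio, -1.72, is at the site 4.05 kb into Il4ra.

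H3K4me3 around the sites was compared between genotypes within 1 kb of each site. For 20 of the 23 sites the interval of the log2 ratio included 0, and for 3 it lay below 0, which is 13.04%. Among all sites of the genome 7.03% had an interval below 0 and 1.69% one above 0, and 4.97% were lower by the 2-fold rule, which all 3 passed. The 3 sites were in the Il4ra and Il21r interval. The Il4ra site from 132700400 had 57 STAT3-deficient and 153 wild-type reads, a log2 ratio of -1.72 (-2.19 to -1.27), from largely the same reads as the lower stretch described above. The site from 132737450 had 20 STAT3-deficient and 41 wild-type reads, a log2 ratio of -1.33 (-2.18 to -0.53), partly shared with the region between both genes. The site from 132733450 had 15 STAT3-deficient and 27 wild-type reads, a log2 ratio of -1.14 (-2.16 to -0.18), which by library totals included 0. The last 2 sites lie outside the regions of the genes, where reads of the interval as a whole were at -0.31 on the same scale.

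The strongest site was not among them. Within 1 kb of the site from 132732200 there were 26 STAT3-deficient and 22 wild-type H3K4me3 reads, a log2 ratio of -0.06 (-0.93 to 0.83), and counts this low bound the difference only loosely. At the 3 sites of Il21r the ratios were -0.08, -0.13 and -0.09, with 141 to 156 STAT3-deficient and 122 to 134 wild-type reads and the windows of the last 2 overlap. At the sites within the Il6ra and Il6st regions they were 0.30 (-0.16 to 0.77) and -0.12 (-0.56 to 0.32). Within 500 bp of the Il6ra site the ratio was 1.00 (0.33 to 1.72), which passed the 2-fold rule as higher. By library totals its ratio within 1 kb was 0.62 (0.16 to 1.09), also above 0. Within receptor regions, H3K4me3 was thus lower in STAT3-deficient cells around the site in Il4ra. That site is a weak call, and its ratio comes largely from the reads of the lower stretch. At Il21r and Il6st there was no difference beyond counting error. At Il6ra the result depended on the radius and the scaling, with the mark higher or not different.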

How the data were processed

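The deposited files hold aligned reads of 25 bp, 1 per line, on mm9, with SICER named in the submitters' processing notes; the values deposited by the authors are positions, strands and a code of matching bases, with no count per region, and the aligner is not given in the sources used here. Each position and strand occurs once in a file, so repeats were already gone. Positions are printed as the files give them.

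Reads were moved 75 bp towards the fragment centre. H3K4me3 regions were windows of 200 bp with at least 12 reads in both libraries pooled (Poisson p of 1e-05, mappable share 0.8), joined within 600 bp, with at least 2 windows. Regions with at least 50 reads are called marked. A gene's region is the one with the most reads in its interval. Sites were windows of 200 bp moved by 50 bp, with at least 10 reads, both strands and Poisson p below 1e-08, set against the local density over 10 kb or that of the genome, whichever was higher. Their excess is the highest window minus that expectation. Intervals are Clopper-Pearson for ratios, exact Poisson for levels and exact conditional for odds ratios. In the 5475 regions compared by parts, a normal approximation of the log odds ratio was used.

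The genes, intervals, motifs and lists were chosen with earlier results of these data known. The named items are the 4 genes, their regions and all sites in their intervals. The parts of regions were added after the data were seen. Region and site calling were tested on simulated data. Alternatives were other scalings, thresholds, calling libraries, joining distances, radii and depths. Python 3.11.15, numpy 2.4.6, scipy 1.17.1, pandas 2.3.3 and matplotlib 3.10.9 were used.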

Additional observations from a re-analysis of the deposited data

How the results depend on the processing

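The region with the most reads at each gene did not pass the 2-fold rule under any of the 8 alternatives to which it was applied. At Il4ra, however, a separate downstream region did pass it, as lower, under 4 of them: 3.65-fold at p of 1e-08, 3.14-fold on the wild-type library alone, 3.50-fold with joining within 200 bp and 3.63-fold without the read shift. The wild-type call selects by the library in which this stretch is high, and all 4 reuse the same reads. The ratio at Il4ra was -0.44 by library totals over the whole region. Over its gene-start piece alone it was -0.26 without the read shift, -0.086 within 1 kb of the summit, -0.18 with regions at p of 1e-08, -0.10 and -0.24 with regions called on the wild-type or the STAT3-deficient library alone, and -0.16 with windows joined within 200 bp. These 6 intervals included 0. The downstream part ranged from -1.97 to -1.40 over 5 alternatives, and the contrast between the parts from -1.62 to -1.35 over 3. Il21r was 0.33 by library totals, and Il6ra was 0.73 with windows joined within 200 bp. Il6ra was not a marked region on the wild-type library alone. Il6st moved by less than its interval.

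The 23 sites became 17 at p of 1e-12, 33 at 1e-05, 21 without the read shift, 22 with a local density over 5 kb and 22 without sites called in both H3K4me3 libraries. Of the 23, 17 were called under all 4 alternatives of calling. Sites with lower H3K4me3 numbered 5 within 2 kb and 1 after subtraction of flanks, which gave a value for 12 sites. Sites with higher H3K4me3 numbered 1 by library totals and 1 within 500 bp, against 0. With the narrower STAT motif, 1 pathway promoter remained. No paired analysis was possible because each group had 1 library. Depth limits the sites outside regions: at the strongest site the interval spans -0.93 to 0.83.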
